A study of Mus musculus with 66 samples.

Results

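Depletion of Ash1l in cultured mouse neurons was compared with a nontargeting control, over 12 of the 66 RNA sequencing libraries of the series. The members are the 6 libraries that received an Ash1l shRNA (a short hairpin RNA, processed in the cell into a small RNA that degrades matching transcripts) and the 6 libraries of the control, 3 from male and 3 from female cultures in each group. All 12 came from neurons of wild-type (WT) embryos taken at e16.5. Both groups received lentivirus, removed at day 6 of culture, and were harvested at day 10. The dose was meant to leave each target at about 50% of its level. The control columns of the count table carry the name of a luciferase hairpin, and the labels call that group nontargeting. Neither the number of hairpins per target nor their sequences are given in the sources used here. The labels speak of triplicate wells and of no separate dissections, so p-values measure the spread between these libraries, which may be technical. The other 54 libraries are 6 without virus and 48 with an shRNA against 1 of 8 other genes, and they are used only as references below.

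ASH1L is a large nuclear protein of the Trithorax group, a family first known for keeping genes active during development. Its SET domain adds methyl groups to lysine 36 of histone H3 (H3K36), and the enzyme is switched on by its partner MRG15 (gene Morf4l1), which works together with RBBP4. Inactivating variants of the human gene are linked to autism, intellectual disability and epilepsy.

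Of the 12 libraries, the shallowest had 25681971 counts and the deepest 55616813. Levels are given as CPM (counts-per-million, on library sizes scaled across all 66 libraries). Libraries of one group were distinct, since their chi-square per gene was 14.4 to 64.1 among males and 36.1 to 209 among females. The cultures had the RNA of neurons. The 8 neuron markers summed to 5368 to 6526 CPM in Ash1l libraries and 5517 to 6308 CPM in control libraries, and the 10 astrocyte markers to 353 to 653 and 364 to 534 CPM. Of the 8 microglia markers, 7 were under 1 CPM in both groups.

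The targeted gene was examined first. Ash1l lies at chr3:88950414-89079375 (GRCm38). The Ash1l libraries had 20.3, 36.8 and 25.6 CPM in females and 29.9, 28.1 and 30.6 CPM in males. The control libraries had 76.2, 138 and 92.2 CPM in females and 108, 115 and 134 CPM in males. Every Ash1l library was below every control library, and the mean fell from 111 ± 23.9 CPM (SD, n = 6) to 28.6 ± 5.498 CPM (n = 6), which is 25.8% of the control. Without virus the mean was 112 ± 8.15 CPM (n = 6). On the log2 scale Ash1l changed by -1.95 (SE 0.058, edgeR adjusted p = 6.11e-11). An exact permutation test of the CPM values gave p = 0.00216 (two-sided, n = 6 per group, 924 splits), the smallest value this design allows.

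**Figure D1:**
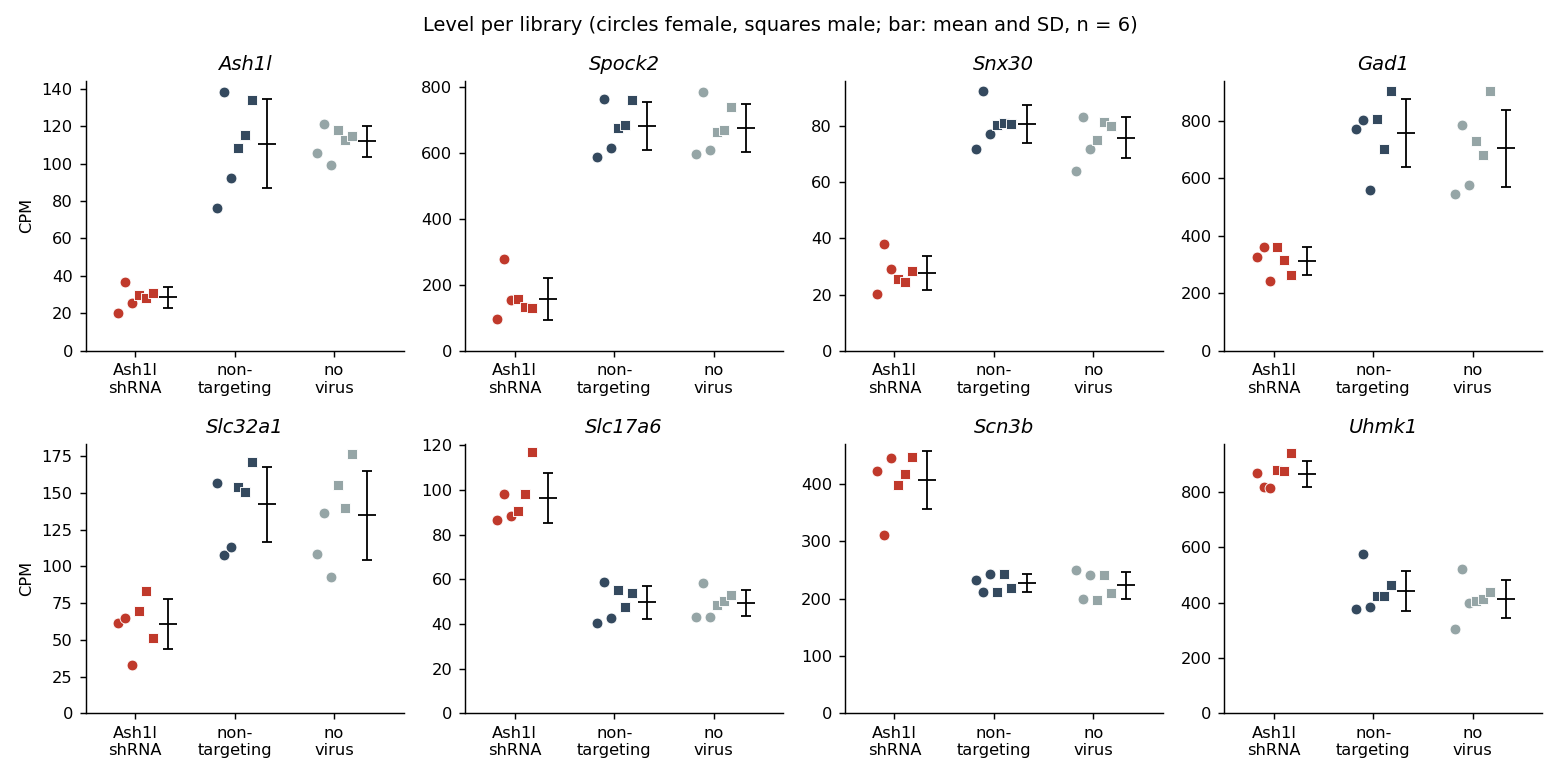
CPM of 8 genes in each library of the Ash1l shRNA, nontargeting shRNA and no virus groups; circles are female and squares male libraries, and the black bar is the mean with its SD (n = 6). Ash1l, Spock2, Snx30, Gad1 and Slc32a1 are lower and Slc17a6, Scn3b and Uhmk1 higher in all 6 Ash1l libraries than in any nontargeting library, and the no virus libraries lie with the nontargeting ones.

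The difference between the groups was broad and mostly small. With sex and replicate number as a block, 3417 of 15129 genes passed (22.6% of those tested, edgeR adjusted p under 0.05), of which 1762 rose (11.6%) and 1655 fell (10.9%). With sex alone as covariate the counts were 1043 (6.89%), 448 higher (2.96%) and 595 lower (3.93%), and all 1043 were also called with the block, in the same direction. The decreases were larger. At a log2 change of at least 0.5, 638 genes fell and 272 rose. At 1 or more, 131 fell and 42 rose. The median over all genes tested was 0.0117. The scaling of library sizes places it near 0, so it cannot show a shift shared by most genes. In 726 genes (4.8%) the CPM values of the 6 Ash1l and 6 control libraries did not overlap, with 394 of them lower after depletion (2.6%) and 332 higher (2.19%). Leaving out female replicate 1 had the largest effect on the count of genes that rose, which was then 1077 (without the Ash1l library) or 1081 (without the control library).

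**Figure D2:**
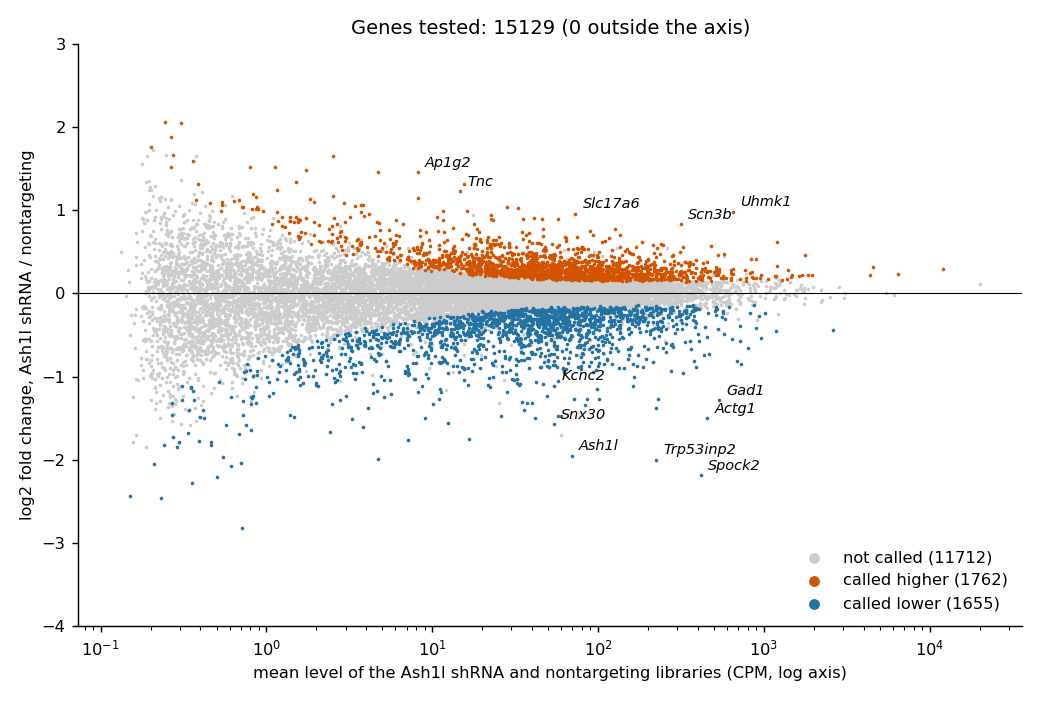
Log2 fold change (Ash1l shRNA over nontargeting) against the mean CPM of the 12 libraries on a log axis; each point is 1 of 15129 genes, colored where called higher (1762) or lower (1655) by edgeR with the replicate block. Named genes include Spock2, Trp53inp2 and Ash1l at the bottom, and the decreases reach farther from 0 than the increases among abundant genes.

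The 12 steepest decreases were taken among called genes of at least 5 CPM that moved the same way in all 6 pairs of libraries. Spock2, a secreted proteoglycan of the extracellular matrix, had 95.3 to 279 CPM in Ash1l libraries (median 144) and 586 to 763 CPM in controls (median 679.7). The groups were far apart, and even the highest Ash1l value, in female replicate 2, was far below the lowest control. Its log2 change was -2.18 (SE 0.160, edgeR adjusted p = 0.000112), larger than that of the targeted gene. Trp53inp2, a regulator of autophagy, had 47.7 to 178 CPM (median 89.8) against 256 to 498 CPM (median 342). It changed by -2.00 (SE 0.170).

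Snx30, a sorting nexin of endosomes, had the smallest p among these 12 genes. Its levels were 20.02 to 38.1 CPM (median 26.9) against 71.8 to 92.4 CPM (median 80.5), a log2 change of -1.57 (SE 0.076, edgeR adjusted p = 3.27e-08). The other steep decreases were Arhgef6 (-1.76), an exchange factor for Rac and Cdc42, Ankrd29 (-1.75), Vwa5a (-1.56), the pannexin channel gene Panx2 (-1.5), the cytoplasmic actin gene Actg1 (-1.5), Slc35f3 (-1.49), the nicotinic receptor subunit Chrna4 (-1.47), the cysteine protease Blmh (-1.47) and the RNA-binding protein Samd4b (-1.47). Of these 12 genes, Samd4b alone had overlapping groups. Actg1 has close relatives in the genome, and how reads shared between copies were counted is not given in the sources used here.

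5 further decreases were small in error rather than extreme in size. Clcn5, an endosomal chloride and proton exchanger, had 17.9 to 24.0 CPM (median 19.0) against 39.7 to 60.8 CPM (median 52.7) and changed by -1.40 (SE 0.071). Dffa encodes the inhibitor that holds the caspase-activated DNase in check, and was at 23.5 to 30.3 CPM (median 27.4) against 52.9 to 63.4 CPM (median 55.7), a change of -1.07 (SE 0.060, edgeR adjusted p = 1.27e-07). Neither gene's groups overlapped. Taf9b, a relative of a TFIID subunit, changed by -1.31, the exchange factor family member Arfgef3 by -0.85, and Tmod2, which caps actin filaments in neurons, by -0.81. Of these 5, only Arfgef3 had overlapping groups.

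Among the increases, the abundant Uhmk1 stood out. It encodes a kinase that binds splicing factors. The Ash1l libraries had 813 to 942 CPM (median 872) and the controls 376 to 577 CPM (median 425), a log2 change of 0.98 (SE 0.075, edgeR adjusted p = 1.74e-06). All 6 Ash1l values were above all 6 control values. Larger changes were seen in genes of lower level. Ap1g2, a subunit of the AP-1 clathrin adaptor, changed by 1.46 (SE 0.120), and Htr3a, a serotonin-gated ion channel, by 1.31 (SE 0.121). Both overlapped in CPM between the groups. A rise in all 6 pairs was a condition for being picked among the largest increases.

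Tnc, the matrix protein tenascin C, changed by 1.23 (SE 0.287, edgeR adjusted p = 0.0238). It had 47.1 CPM in Ash1l male replicate 3 and 11.8 to 19.3 CPM in the other 5 Ash1l libraries, against 5.55 to 10.98 CPM in controls. Its call was lost without replicate 1 of either sex or female replicate 3 (adjusted p 0.0703 to 0.0899). The remaining large increases were Nudt5 (1.04), a pyrophosphatase of ADP-sugars, Cbfb (1.02), the partner subunit of RUNX factors, Tmc7 (0.99), the neuronal transcription factor Neurod1 (0.99), Slc17a6 (0.96), Kctd4 (0.92), Trp53inp1 (0.90) and the GABA-B receptor auxiliary subunit Kctd12 (0.90). Kctd4 did not pass without the block (adjusted p = 0.11), nor without replicate 1 of either sex or male replicate 2 (0.0508 to 0.0741).

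The sexes share no library, so each can be read alone. In males 788 of 14665 genes passed (5.37%), 255 of them higher (1.74%) and 533 lower (3.63%), and in females 1825 of 14595 (12.5%), 757 higher (5.19%) and 1068 lower (7.32%). Of the 788 genes called in males, 785 (99.6%) had the same sign in females and 669 (84.9%) also passed there. Of the 1815 genes called in females and tested in males, 1800 (99.2%) had the same sign and 669 (36.9%) passed. A test of the difference between the sexes called 0 of 15129 genes in edgeR, with 252 at an unadjusted p under 0.05. The gene furthest from equal among those named above was Kctd4, with 1.44 (SE 0.246) in males and 0.44 (SE 0.141) in females (unadjusted p of the difference 0.00268). For Vwa5a the male value was -1.95 (SE 0.171) and the female value -1.18 (SE 0.152). Neither difference passed adjustment. In females alone Spock2 was at -2.03 (SE 0.309) and did not pass (edgeR adjusted p = 0.0701), nor did Actg1 (0.183).

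**Figure D3:**
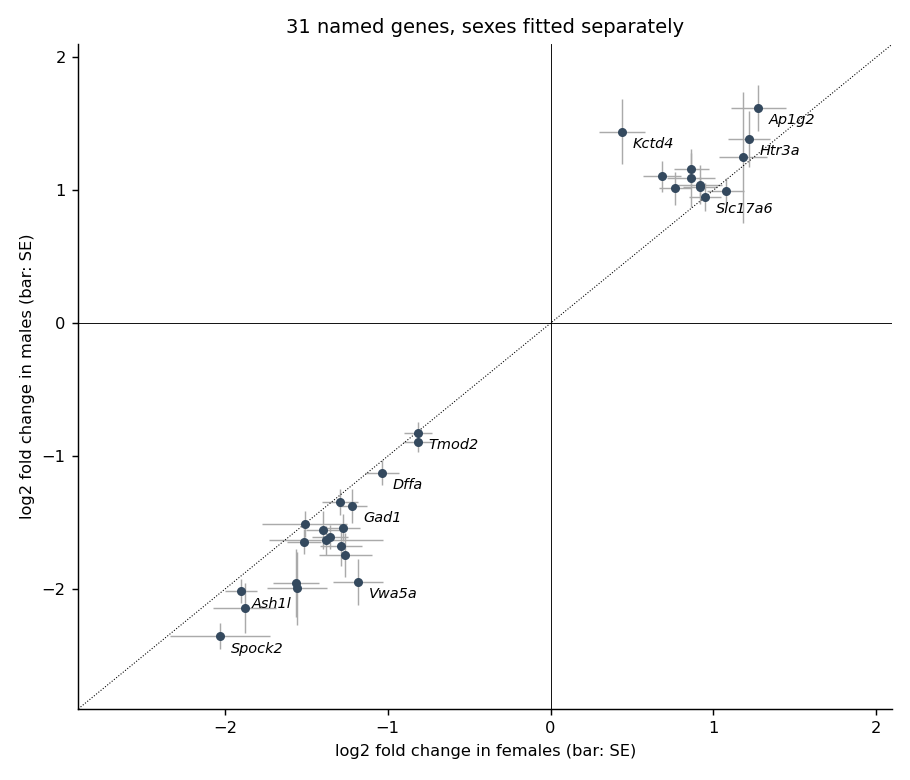
Log2 fold change of Ash1l shRNA over nontargeting in females (horizontal) and males (vertical) for the 31 genes named as target, largest or smallest in p, each sex fitted alone with its replicate block; bars are SE and the dotted line marks equal values. All 31 have the same sign in both sexes. The largest changes had to move the same way in every pair of libraries, so selection fixed their agreement. Genes smallest in p were picked on both sexes together, so their agreement is no independent test. Kctd4 lies farthest above the line.

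Several of the listed markers of inhibitory neurons fell and several of those of excitatory neurons rose. GABAergic neurons make their transmitter with the enzymes Gad1 and Gad2 and load it into vesicles with Slc32a1. Of 11 GABAergic markers, 6 were called lower (54.5%, against 10.9% of all genes) and 1 higher, Dlx2, and the median log2 change was -0.48. The summed level was 966 to 1437 CPM in Ash1l libraries, 1853 to 2315 CPM in controls and 1728 to 2393 CPM without virus. The sums of Ash1l and control libraries did not overlap, and no marker was at 0. In such bulk RNA, fewer cells of a type and less RNA per cell cannot be told apart.

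Gad1 had 242 to 360.0 CPM in Ash1l libraries (median 320.4) and 560.2 to 905 CPM in controls (median 787). All 6 Ash1l libraries were below all controls, with a log2 change of -1.28 (SE 0.074, edgeR adjusted p = 2.88e-07). Slc32a1 had 32.9 to 83.0 CPM (median 63.3) against 108 to 171 CPM (median 152) and changed by -1.26 (SE 0.156). Its groups did not overlap either. Gad2 changed less, by -0.48 (SE 0.055), with overlapping groups, as did Lhx6 (-0.49), a transcription factor of interneurons from the medial ganglionic eminence. The neuropeptide genes Sst (-0.74, adjusted p = 0.0481) and Vip (-0.70) passed with wide errors, and Sst lost its call without the block (0.0701) or without replicate 1 of either sex, female replicate 3 or male replicate 2 (0.0929 to 0.135). The factors Dlx1 (-0.09), Dlx5 (-0.33) and Dlx6 (-0.33) and the neuropeptide Npy (-0.26) did not pass. Without the block, 4 of the 11 markers passed as lower and 0 as higher.

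Of 8 excitatory markers 5 were called higher (62.5%, against 11.6% of all genes) and 1 lower, and 2 and 0 without the block. The summed level was 1159 to 1391 CPM against 954 to 1150 CPM in controls, and 931 to 1489 CPM without virus. Slc17a6, the vesicular glutamate transporter VGLUT2, had 86.7 to 117 CPM (median 94.3) against 40.3 to 58.7 CPM (median 50.6), with no overlap, and changed by 0.96 (SE 0.067, edgeR adjusted p = 7.62e-07). Its relative Slc17a7 (VGLUT1) changed by 0.40 (SE 0.077). The cortical factors Neurod6 (0.30), Bcl11b (0.30) and Tbr1 (0.26) rose and Neurod2 fell (-0.41). Camk2a (0.16) did not pass.

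Of the markers of other cells, none of 10 astrocyte and 7 oligodendrocyte lineage markers tested was called. The median log2 change was -0.43 over 8 dividing cell markers (1 higher, 2 lower), -0.43 over 5 endothelial cell and pericyte markers (1 lower) and -0.14 over 8 radial glia and progenitor markers (2 lower, 25%). Without the block none of these 3 lists had a called member. Among neuron markers the RNA-binding protein gene Elavl4 rose (0.38) and its relative Elavl3 fell (-0.57), together with the light neurofilament gene Nefl (-0.23). The progenitor markers Nes (-0.47) and Vim (-0.26) and the pericyte marker Rgs5 (-0.49) fell. The summed progenitor level did not fall, at 186 to 765 CPM (median 344) in Ash1l libraries and 181 to 492 CPM (median 240) in controls. Fabp7, which was not called, had a median of 245 CPM against 142 CPM. Against the other 8 shRNA groups 2 progenitor markers were higher and 2 lower. Of the dividing cell markers Pcna rose (0.34) while Top2a and Cdk1, both at about 1 CPM or less in the median Ash1l library, fell.

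The most one-sided group was the stress response. It holds genes of the integrated stress response, in which the factor ATF4 turns on amino acid synthesis and import, and of the unfolded protein response, which raises chaperones of the endoplasmic reticulum. Of 28 members, 20 were called lower (71.4%, against 10.9% of all genes) and 0 higher, with a median log2 change of -0.36. In the female pairs 22 to 27 members were below the control of the same number and in the male pairs 24 to 27. The changes were modest, and the block mattered: 4 members passed without it, 13 with the block in females only, 13 in females alone and 10 in males alone. With no virus as the control 11 passed as lower and 0 as higher.

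The 5 promoters printed here were picked because each holds 1 of 2 stress elements, and most promoters of the list hold neither. All 5 belong to genes called lower. Each is given as the 250 bases before the start site (RefSeq, GRCm38.p6, written on the strand of the gene, 5′ to 3′). Capitals mark matches, on either strand, to the amino acid response element TGATGNAAN, which ATF4 is known to bind, in the first pair.
Asns (chr6:7693210-7693459, - strand): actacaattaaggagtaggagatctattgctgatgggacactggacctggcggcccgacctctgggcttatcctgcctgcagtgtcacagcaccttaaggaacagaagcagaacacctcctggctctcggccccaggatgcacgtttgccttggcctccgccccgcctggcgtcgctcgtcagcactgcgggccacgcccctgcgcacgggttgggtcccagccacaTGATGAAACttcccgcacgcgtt
Slc7a11 (chr3:50443614-50443863, - strand): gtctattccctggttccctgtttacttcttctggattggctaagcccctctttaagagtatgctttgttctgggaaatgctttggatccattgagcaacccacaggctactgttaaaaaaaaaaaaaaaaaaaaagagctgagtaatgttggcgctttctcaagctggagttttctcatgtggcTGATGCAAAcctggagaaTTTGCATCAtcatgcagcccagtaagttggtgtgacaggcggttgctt
Capitals mark the endoplasmic reticulum stress element (CCAAT, any 9 bases, then CCACG), known from chaperone promoters, in the next 3.
Hspa5 (chr2:34771840-34772089, + strand): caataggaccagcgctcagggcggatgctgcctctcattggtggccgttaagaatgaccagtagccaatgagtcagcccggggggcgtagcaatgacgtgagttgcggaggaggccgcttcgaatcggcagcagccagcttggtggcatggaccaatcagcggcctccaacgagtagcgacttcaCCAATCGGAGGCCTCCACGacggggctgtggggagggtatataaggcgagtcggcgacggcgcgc
Hsp90b1 (chr10:86705445-86705694, - strand): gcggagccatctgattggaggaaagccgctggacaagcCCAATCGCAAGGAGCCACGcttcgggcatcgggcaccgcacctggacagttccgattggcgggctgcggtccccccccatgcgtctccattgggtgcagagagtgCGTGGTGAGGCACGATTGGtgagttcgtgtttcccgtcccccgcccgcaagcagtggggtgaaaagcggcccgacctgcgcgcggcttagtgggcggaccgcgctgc
Creld2 (chr15:88819396-88819645, + strand): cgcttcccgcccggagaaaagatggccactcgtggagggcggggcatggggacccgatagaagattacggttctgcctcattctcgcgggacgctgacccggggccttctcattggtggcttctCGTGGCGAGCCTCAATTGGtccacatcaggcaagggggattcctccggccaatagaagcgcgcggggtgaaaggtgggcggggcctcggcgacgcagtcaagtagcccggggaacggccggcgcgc
The Asns match is TGATGAAAC and starts 23 bases before the start site. In the 300-base windows from 250 before to 50 after the start, the amino acid element was found in 5 of 25 list promoters (20%) and in 2.20% of 11801 promoters of tested genes. It was in 3.40% of promoters of genes called lower and in 1.86% of those called higher. The stress element, which contains the CCAAT box, was also in 5 of 25 list promoters (20%), and in 0.161% of all, with 6 of 1295 among genes called lower and 0 of 1396 among those called higher. Hspa5, Hsp90b1 and Creld2 are among those 6. Calr and Pdia6 also hold the stress element, were not called and are not printed. Both motifs were chosen after the list's counts were known. The list was made of genes of these 2 responses, so its shares are no independent support. A match describes letters in the window and shows no binding.

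The list includes genes of amino acid and one-carbon supply. Mthfd2, a mitochondrial folate enzyme, had 13.7 to 35.9 CPM (median 22.0) against 33.6 to 52.0 CPM (median 41.0) and changed by -0.97 (SE 0.102, edgeR adjusted p = 2.84e-05). Psat1 (-0.55) and Phgdh (-0.46) make serine, and Phgdh was the list's only called member whose groups did not overlap, at 18.2 to 24.6 against 25.8 to 33.1 CPM. Asns, the asparagine synthetase shown above, changed by -0.34 (SE 0.066), and the transporter subunits Slc7a11, Slc7a5 and Slc3a2 by -0.90, -0.42 and -0.42. Atf4 itself changed by -0.28 (SE 0.074, adjusted p = 0.0138), and its targets Trib3, Chac1 and Ddit3 by -0.99, -0.71 and -0.50.

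On the side of the endoplasmic reticulum, the chaperone gene Hspa5 (BiP) had 304 to 524 CPM (median 484) against 503 to 724 CPM (median 585) and changed by -0.43 (SE 0.074, edgeR adjusted p = 0.0012). Its groups overlapped. Hsp90b1 (-0.32), Creld2 (-0.51), Sdf2l1 (-0.75), Herpud1 (-0.32), Pdia4 (-0.31), Manf (-0.23) and Sel1l (-0.49), which serves in the removal of misfolded proteins, also passed. Xbp1 (-0.14) and Ddit4 (0.07) did not. One library stood apart. Ash1l male replicate 3 had the lowest Atf4 (186 CPM, against 327 to 371 in the other 5) and Hspa5, and its pair had a median log2 difference of -0.76 over the list, against -0.21 to -0.45 in the others. Without that library 19 members were called lower and the list median was -0.29. Without male replicate 1 of the Ash1l group 17 were.

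**Figure D4:**
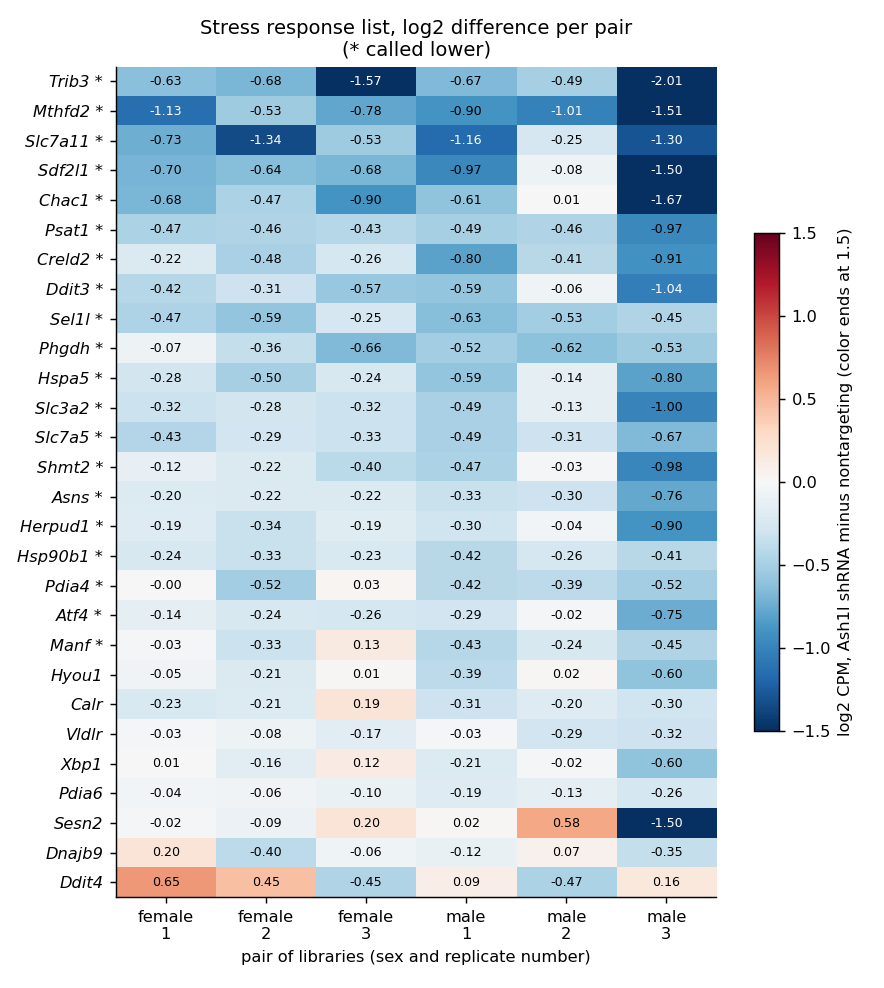
Log2 CPM difference between the Ash1l shRNA and the nontargeting library that share sex and replicate number, for 28 stress response genes (rows, ordered by fold change; asterisks mark the 20 called lower) in 6 pairs (columns). Of the 28 genes, 19 are below 0 in all 6 pairs, and the male 3 column is the deepest.

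Synaptic genes changed in both directions, with adhesion molecules and glutamate receptors called lower more often than higher. Of 29 adhesion genes, which join the 2 sides of the synapse, 9 fell (31.0%, against 10.9% of all genes) and 3 rose (10.3%, against 11.6%). Nrxn3, a presynaptic neurexin, had 82.1 to 135 CPM (median 111) against 154 to 262 CPM (median 225), with no overlap, and changed by -1.01 (SE 0.072, edgeR adjusted p = 9.55e-07). Its secreted ligand gene Cbln2 changed by -1.10 (SE 0.097), also with separate groups. Nrxn2 (-0.73), Nlgn3 (-0.56), Il1rapl1 (-0.47) and Slitrk3 (-0.42) fell too. Without the block 6 adhesion genes were lower and 0 higher (all genes: 3.93% and 2.96%). Against the other 8 shRNA groups, a comparison given in full below, 7 were lower and 5 higher (all genes: 12.7% and 17.6%). Inhibitory neurons also express several of these genes, and the part of the GABAergic markers above in these changes was not tested.

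Of 26 genes for glutamate receptors and their auxiliary subunits, 8 fell (30.8%, against 10.9% of all genes) and 1 rose. Without the block 1 fell and 1 rose. Against the other shRNA groups 4 were lower and 4 higher (all genes: 12.7% and 17.6%). Cacng2 (stargazin), which carries AMPA receptors to the synapse, had 30.3 to 49.9 CPM (median 36.4) against 60.7 to 83.3 CPM (median 70.2) and changed by -0.87 (SE 0.070, edgeR adjusted p = 1.43e-06). The AMPA receptor subunits Gria1 (-0.49), Gria3 (-0.29) and Gria2 (-0.19) and the NMDA receptor subunits Grin2a (-0.30) and Grin3a (-0.26) fell as well. The auxiliary subunit gene Cnih2 rose (0.35). Of these, Cacng2 and Cnih2 had separate groups.

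The 31 genes of vesicle release had 6 higher (19.4%, against 11.6% of all genes) and 7 lower (22.6%, against 10.9%). Without the block 4 were higher and 3 lower, and against the other shRNA groups 16 and 5 (all genes: 17.6% and 12.7%). The vesicle proteins Syn2 (-0.78), Sv2a (-0.55) and Syt7 (-0.42) fell, and the SNARE gene Vamp1 (0.59) and Sv2b (0.50) rose. Of the scaffolds of the postsynaptic density, 5 of 18 were higher (27.8%, against 11.6% of all genes). They included Homer3 (0.52), Dlg2 (0.31), Shank2 (0.28) and Homer1 (0.27). The anchoring proteins Dlgap2 (-0.38) and Dlgap1 (-0.29) were lower (11.1%, against 10.9% of all genes). Without the block 1 was higher and 0 lower, and against the other shRNA groups 8 and 1 (all genes: 17.6% and 12.7%). GABA receptor subunits had 2 higher (13.3%, against 11.6% of all genes) and 3 lower (20%, against 10.9%) of 15, and 1 and 0 without the block. Among them were Gabra3 (0.37) and Gabrb1 (-0.35).

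Ion channel genes had 12 higher (24.0%, against 11.6% of all genes) and 10 lower (20%, against 10.9%) of 50, and 3 and 4 without the block. Against the other shRNA groups 18 were higher and 5 lower (all genes: 17.6% and 12.7%). Kcnc2, the Kv3.2 potassium channel of fast-firing neurons, had 29.4 to 43.6 CPM (median 33.8) against 65.9 to 83.9 CPM (median 72.1) and changed by -1.11 (SE 0.075, edgeR adjusted p = 6.16e-07). Scn3b, a sodium channel beta subunit, moved the other way, from 211 to 244 CPM in controls (median 226) to 311 to 446 CPM (median 419), a change of 0.83 (SE 0.061). Neither gene's groups overlapped. The embryonic sodium channel gene Scn3a fell by 0.65 on the log2 scale. Those 3 channel genes passed with and without the block. Of 34 activity-induced genes 1 rose (Homer1, 2.94%, against 11.6% of all genes) and 2 fell (Cbln2 and Sst, 5.88%, against 10.9%). None of the 16 immediate early genes passed, Fos included (-0.66, SE 0.552). Ash1l male replicate 3, the library that stood apart for Atf4, was low here too. The log2 difference of its pair for Fos was -3.7, against -0.692 to 0.241 in the other 5. That pair was also far below the others for Fosb (-3.74) and Npas4 (-2.43).

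Genes that steer and build axons were more often called lower than higher against the control. Of 55 guidance genes 14 fell (25.5%, against 10.9% of all genes) and 6 rose (10.9%, against 11.6%), and 2 and 0 without the block. Against the other 8 shRNA groups 9 were lower and 14 higher, where 12.7% of all genes were lower and 17.6% higher. The ephrin receptor gene Epha5 had 154 to 263 CPM (median 179) against 330 to 414 CPM (median 352), with no overlap, and changed by -0.94 (SE 0.068, edgeR adjusted p = 9.55e-07). The netrin receptors Dcc (-0.82) and Unc5c (-0.76) and the semaphorin receptor Nrp1 (-0.52) fell in all 6 pairs but overlapped and did not pass without the block (adjusted p 0.241, 0.103 and 0.0634). The ligand gene Ntn4 changed by -1.20 (SE 0.206).

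Of 32 cytoskeletal genes 8 fell (25.0%, against 10.9% of all genes) and 2 rose (6.25%, against 11.6%), and 3 and 1 without the block. Against the other shRNA groups 6 were lower and 4 higher (all genes: 12.7% and 17.6%). Kif5a, a kinesin motor of axonal transport, had 378 to 679 CPM (median 506) against 853 to 1029 CPM (median 922) and changed by -0.85 (SE 0.070). The filament genes Ina (-0.96), Nefh (-1.15) and Nefm (-0.35), the motor gene Kif1b (-0.66), the microtubule-associated Map1b (-0.44) and the ankyrin gene Ank3 (-0.36) fell. Stmn1, which destabilizes microtubules, rose (0.42). Kif5a and Ina had separate groups and passed without the block.

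Around the enzyme itself, regulators of H3K36 methylation changed by small amounts in both directions. Of 27 genes 5 rose (18.5%, against 11.6% of all genes) and 3 fell (11.1%, against 10.9%), and 2 and 1 without the block. The activating partner gene Morf4l1 was not called (0.16, SE 0.062, edgeR adjusted p = 0.0873). Its paralog Morf4l2 (0.25) and the partner gene Rbbp4 (0.19) rose and did not pass without the block (adjusted p 0.338 and 0.381). Of the other H3K36 methyltransferases, Setmar rose (0.69, SE 0.131) while Nsd1 (-0.05) and Setd2 (-0.02) did not pass. The demethylases Kdm2a (-0.48, SE 0.054) and Kdm4a (-0.31) fell. The Trithorax and H3K4 list had 4 of 18 higher (22.2%, against 11.6% of all genes) and 0 lower. The 4 were the complex subunits Rbbp5 (0.28), Paxip1 (0.21) and Wdr5 (0.19) and the gene Setd5 (0.19). Without the block 1 was higher, without female replicate 1 of either group 0 were, and against the other shRNA groups 9 were (all genes: 17.6%).

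Polycomb proteins, which oppose the Trithorax group, had 5 higher (18.5%, against 11.6% of all genes) and 6 lower (22.2%, against 10.9%) of 27. Without the block 2 were higher and 2 lower. Bmi1, a core subunit of Polycomb complex PRC1, had 26.7 to 45.3 CPM (median 33.1) against 53.3 to 77.8 CPM (median 56.0), with no overlap, and changed by -0.82 (SE 0.064, edgeR adjusted p = 1.30e-06). The PRC2 accessory subunits Aebp2 (-0.69) and Jarid2 (-0.53) fell, and the PRC1 subunit Phc2 rose (0.35). The catalytic subunit Ezh2 did not pass (-0.04). Of the other genes depleted in the series, Kdm6b (-0.57) and Dnmt3a (-0.15) were lower and Mbd5 (0.27), Tbr1 (0.26) and Setd5 higher. None of these 5 passed without the block (adjusted p 0.12 for Kdm6b and 0.215 to 0.457 for the others).

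Genes linked to ASH1L in other systems did not pass against the control in the main fit. Of 12 such genes 5 had enough counts to be tested, and 0 were called, with 0 also without the block. Leaving out 1 library gave 0 to 1 lower, and DESeq2, voom and females alone each gave 1 lower. In the comparison with the other shRNA groups 1 was higher and 0 lower (all genes: 17.6% and 12.7%). The higher gene was Bdnf or Ntrk2, and both had a negative change against the control. The neurotrophin gene Bdnf was uneven between libraries (-0.56, SE 0.366, adjusted p = 0.347), its receptor gene Ntrk2 changed by -0.14 (0.0697), and Meis1 and Meis2 by 0.24 and -0.13. Of 33 neurotrophin signalling genes 7 rose (21.2%, against 11.6% of all genes) and 4 fell (12.1%, against 10.9%), and 1 and 0 passed without the block. Against the other shRNA groups 15 were higher and 3 lower (all genes: 17.6% and 12.7%). Against the control, the adaptor gene Grb2 (0.29), the sorting receptor gene Sort1 (0.27) and the kinase gene Mapk3 (0.24) rose and the kinase gene Pik3ca (-0.36) fell. Of 45 other autism risk genes 10 rose (22.2%, against 11.6% of all genes) and 6 fell (13.3%, against 10.9%). Without the block 0 rose and 1 fell, and against the other shRNA groups 15 were higher and 4 lower (all genes: 17.6% and 12.7%).

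Targets of the tumor suppressor p53 leaned upward, with 7 of 24 higher (29.2%) and 1 lower, and 4 and 1 without the block. Cdkn1a, the cell cycle inhibitor p21, had 161 to 205 CPM (median 182) against 102 to 147 CPM (median 132), with no overlap, and changed by 0.49 (SE 0.065, edgeR adjusted p = 0.000108). Trp53inp1 (0.90), Btg2 (0.40), Zmat3 (0.39), Aen (0.37), Xpc (0.37) and Phlda3 (0.32) rose and the ribonucleotide reductase subunit Rrm2b fell (-0.47). Mdm2, Bax and Bbc3 did not pass (0.16, 0.17 and -0.02). Among 30 apoptosis genes 6 rose (20%, against 11.6% of all genes) and 3 fell (10%, against 10.9%), and 1 and 3 without the block. The apoptosome gene Apaf1 (-0.70, SE 0.072) and Bid (-0.52) fell with Dffa, and the initiator caspase gene Casp9 rose (0.47), each of these with separate groups. The DNA damage kinase gene Atm fell (-0.67), and Ercc3 (-0.26) was the other of 2 repair genes lower among 30 (6.67%, against 10.9%).

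Of 77 ribosomal protein genes 5 fell (6.49%, against 10.9% of all genes) and 1 rose (1.3%, against 11.6%). None changed beyond 0.33 in either direction, and without the block 0 passed. Against the other shRNA groups 28 of them were lower and 0 higher (all genes: 12.7% and 17.6%). Subunits of oxidative phosphorylation had 6 higher (8.22%, against 11.6%) and 5 lower (6.85%, against 10.9%) of 73, with Atp5d the largest (-0.66). Without the block 0 were higher and 2 lower, and against the other shRNA groups 4 and 14 (all genes: 17.6% and 12.7%). Leaving out 1 library gave 0 to 7 higher, with 0 without female replicate 1 of either group, and 3 to 8 lower. Lysosomal genes had 5 higher (12.5%, against 11.6% of all genes) and 7 lower (17.5%, against 10.9%) of 40. Without the block 3 were higher and 0 lower (all genes: 2.96% and 3.93%). The acid lipase gene Lipa (0.74) and the peptidase gene Tpp1 (0.38) were higher. In cholesterol metabolism 4 of 19 enzyme genes fell (21.1%, against 10.9%), among them Ebp (-0.43), Lss (-0.31) and Sc5d (-0.21), while the exporter gene Abcg1 (0.64) rose. Of 13 interferon-stimulated genes 1 was called, Stat2 (-0.32), which was lower (7.69%, against 10.9% of all genes).

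**Figure D5:**
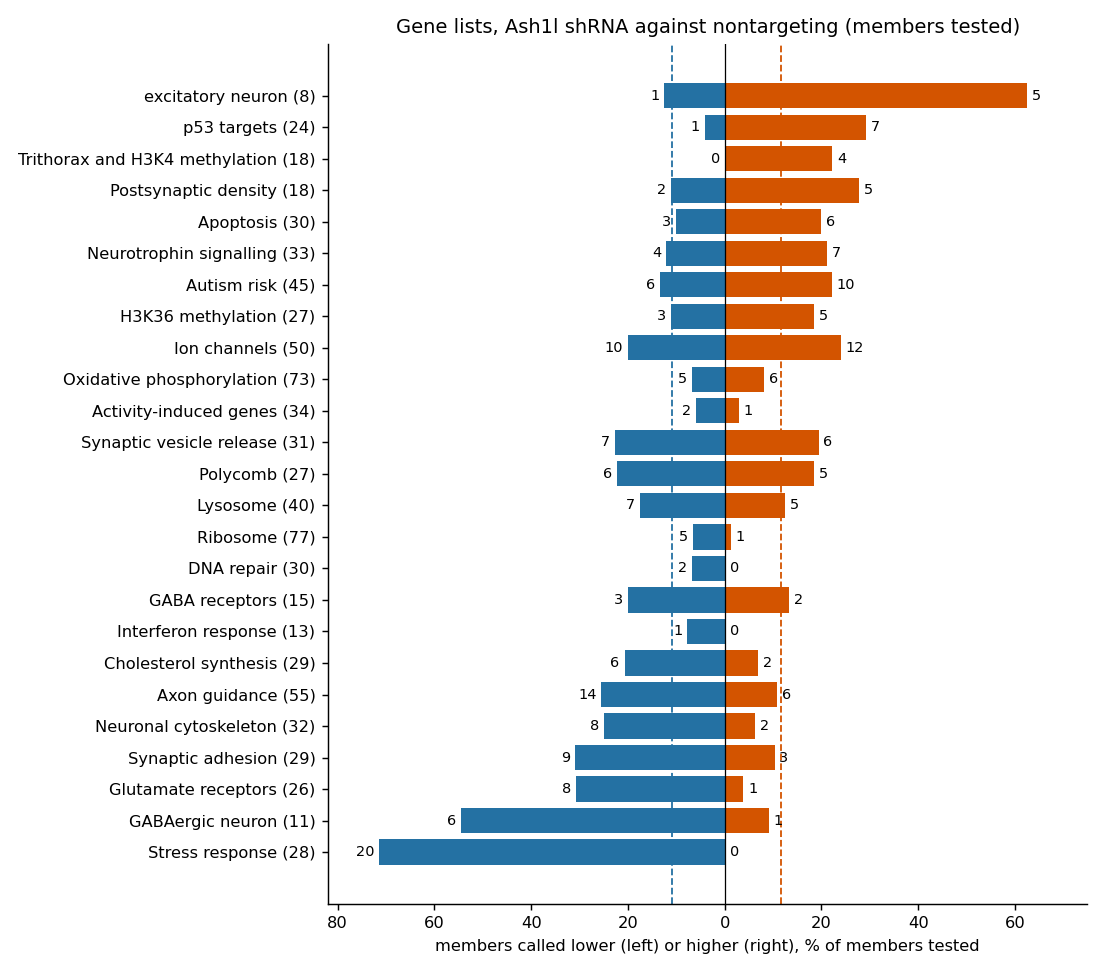
Percent of tested members called higher (right, orange) or lower (left, blue) in 25 gene lists, with the counts at the bars; dashed lines mark the percent over all 15129 genes (11.6 higher, 10.9 lower). The stress response has 20 of 28 members lower and GABAergic markers 6 of 11, while 5 of 8 excitatory markers are higher.

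Few genes were called for infection itself, which does not show that both controls are alike. With no virus as the control, 2456 genes were called in Ash1l libraries instead of 3417, and 1160 instead of 1762 were higher. Between the nontargeting and no virus libraries 3 of 15215 genes passed (0.0197%; 603 at an unadjusted p under 0.05), and without the block 0 did (edgeR; 115 unadjusted). All 3 were lower with virus: the collagen gene Col3a1 (-1.11), the growth factor gene Igf2 (-1.95) and Fam214b (-0.42). Fam214b was called higher in Ash1l libraries (0.50), at a mean of 45.2 CPM against 31.9 CPM in the nontargeting and 42.5 CPM in the no virus libraries.

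The Ash1l libraries were also set against the mean of the 8 other shRNA groups, which uses no nontargeting library but the same Ash1l libraries. There 4847 of 16018 genes passed (30.3%), 2820 higher (17.6%) and 2027 lower (12.7%). The count was 2829 without the block, and 5297 without the male replicate 1 libraries labelled Setd5 shRNA and Kdm6b shRNA, whose target levels go against their labels. The values of Spock2 (-2.07), Trp53inp2 (-1.58), Snx30 (-1.63), Dffa (-1.24), Gad1 (-1.13), Slc32a1 (-0.89), Kcnc2 (-0.95), Nrxn3 (-0.96), Epha5 (-0.90), Bmi1 (-0.61), Uhmk1 (1.39), Slc17a6 (1.08) and Scn3b (0.81) passed in this comparison. Arfgef3 did not (-0.24, edgeR adjusted p = 0.290), nor did Gad2 (-0.18), Sst (-0.29), Vip (-0.02) or Gabrb1 (-0.10). By list, 19 of 28 stress genes were lower and 0 higher, 4 of 11 GABAergic markers lower and 1 higher, 5 of 8 excitatory markers higher and 1 lower, and 5 p53 targets higher and 5 lower of 24.

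Against the nontargeting control, long genes were called lower more often than short ones. By the genomic span of the gene in RefSeq, 7.41% of 1971 genes under 5 kb were lower, 10.6% of 3925 genes of 20 to 50 kb and 16.0% of 941 genes over 200 kb. The share called higher went from 8.52% to 13.2% and 12.3% in the same groups. The median span was 33.6 kb for genes called lower, 27.4 kb for those called higher and 22.4 kb for the rest. The median log2 change stayed between -0.0084 and 0.0199 in every span group. Within pairs it differed: in genes over 200 kb it was -0.12 in female pair 2 and between -0.03 and 0.05 in the other 5. With the other shRNA groups as the reference, long genes did not lean lower. There the median log2 change was 0.00297 under 5 kb, 0.0333 at 20 to 50 kb and 0.0733 over 200 kb. Shares of called genes by span are not given for that comparison.

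In the promoters of called genes, the ETS site CCGGAAG was in 21.4% of 1396 windows of genes called higher, 12.4% of 1295 of genes called lower and 16.4% of all 11801, counting both strands. The GC box GGGCGG was in 67.7%, 66.3% and 62.9%. The CCAAT box was in 37.3%, 37.9% and 38.4%, and in 76.0% of the 25 stress response promoters.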

How the data were processed

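Polyadenylated RNA of cultured neurons was sequenced from stranded libraries, per the labels. The authors deposited 1 table of read counts per gene, whole numbers and not normalized. The submitters' processing notes name STAR, featureCounts and mm10, and the settings and annotation are not given in the sources used here. Control columns named for luciferase were matched to the nontargeting group. Rows without a symbol (18483 of 48716, at most 1.24% of the counts of any of the 12 libraries) were left out, 149 repeated symbols were summed, and 6 columns of no sample used here were not used. Low counts were mostly even (30.4% odd from 1 to 100, 49.3% at 1000 or more), so halved counts were tried.

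Counts were tested in R 4.3.3 with edgeR 4.0.16 (filterByExpr, TMM scaling, robust quasi-likelihood F test, Benjamini-Hochberg adjustment over all genes tested, threshold 0.05), on the 12 libraries with 6 blocks of sex and replicate number, which left 5 residual degrees of freedom. Only these libraries were fitted because 2 male libraries of other groups, labelled Setd5 and Kdm6b replicate 1, go against their labels. Library differences per pair use log2 CPM with a prior count of 2. CPM means are over 6 libraries. Counts of amplified reads are not independent molecules, so errors rest on replicates.

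The labels number the replicates. Deviations from the group mean correlated between libraries of the same number at 0.577, 0.652 and 0.271 in females and at 0.069, -0.141 and 0.192 in males, so the number pairs the libraries in females and is only a number in males. A fit with the block in females alone was added.

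Named genes were Ash1l, the 12 largest decreases and 12 largest increases among called genes with the same direction in all 6 pairs and at least 5 CPM on average, 6 more with the smallest adjusted p, and up to 4 called members per list with the smallest adjusted p. Other list members named were picked after their values were seen. Members and lists were chosen with earlier results of these data known. Alternatives were no block, all 66 libraries, DESeq2 1.42.0, limma 3.58.1 voom, other size factors, no filter, halved counts, no virus as control, each sex alone, a gene span correction and leaving out each library. Results for a few list members are not reported here.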

Additional observations from a re-analysis of the deposited data

How the results depend on the processing

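Without the replicate block the count fell from 3417 to 1043 genes (448 higher, 595 lower); with the block in females only, where the numbers pair the libraries, it was 2801. Males alone gave 788 (255 and 533), females alone 1825 (757 and 1068), and no virus as control 2456 with 1160 higher. DESeq2 gave 3633, voom 3391, other size factors 3382, no filter 3376, halved counts 3414, all 66 libraries 2956 and a gene span correction 3534. Leaving out 1 library gave 2357 to 3306 genes (1077 to 1714 higher, 1262 to 1619 lower). Since the block then drops the partner too, both libraries of a pair gave nearly the same count. Against the other 8 shRNA groups the count was 2829 without the block, 5297 without the 2 libraries that go against their labels, and 3896 to 4549 when each Ash1l library was left out. For nontargeting against no virus it was 0 without the block and 0 to 9 when 1 library was left out. The sex difference called 0 genes in every fit run.

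None of the 114 named genes changed direction in any setting run. They were chosen for their calls in these same libraries, which most settings refit, so their direction had little room to change. Leaving out single libraries, 102 kept their call throughout, and 73 kept it without the block, 108 with the block in females only, 106 with all 66 libraries, 101 with no virus as control, 94 in females alone and 75 in males alone. DESeq2, voom, other size factors, halved counts and the span correction kept all 114, and no filter 111. Whether depth limits calls on genes near 1 CPM was not tested.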
